A study of Mus musculus with 5 samples.

Results

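The genes described here are 10 transcription factors that direct the lineages of CD4 T helper cells: Gata3, Tbx21 (which encodes T-bet), Maf, Prdm1 (Blimp-1), Bcl6, Irf4, Batf, Ahr, Eomes and Runx3. They were chosen by name, as lineage regulators outside the nuclear receptor family, and are 10 of the 24417 genes with a symbol in the count table. The RNA came from cells of mouse colon lamina propria, a connective tissue under the gut epithelium. All 5 libraries share 1 strain label, which pairs the Foxp3DTR-GFP allele with a reporter-null allele, loxp-Thy1.1-STOP-loxp-GFP. Cells of the Treg group (2 libraries) were Foxp3-DTR-GFP+. Cells of the reporter-null group (3 libraries) carried the Thy1.1 reporter of the null allele. No agent is named for either group. Age, sex and the number of animals behind a library are not stated in the labels, and the description of reporter-null replicate 1 joins the numbers 1 and 4. Treg replicate 1 and reporter-null replicate 2 share the number 2 in their descriptions, and Treg replicate 2 and reporter-null replicate 3 the number 3, with no word on what it marks. The p-values therefore measure the spread between libraries, which may be technical. The comparison asks how the lineage regulators are expressed in cells that switched on the Foxp3 locus with a functional allele or with the reporter-null one.

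Each T helper lineage is organised around a factor that turns on its own cytokine genes and restrains rival lineages: T-bet and Runx3 for Th1, GATA3 for Th2, Bcl6 for follicular helper (Tfh) cells, and c-MAF for IL-10 and IL-21 output. Blimp-1 and Bcl6 repress each other. Treg cells use the same factors beside Foxp3, and in the gut GATA3, c-MAF, Blimp-1 and AHR, a receptor for dietary and microbial ligands, are known for their part in Treg function, while IRF4 and BATF bind DNA together and build the effector Treg state.

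Libraries held 17670420 to 22395169 counts each. Foxp3 measured 764 and 770.0 CPM (reads scaled to library size with TMM factors) in Treg replicates 1 and 2 and, for reporter-null replicates 1, 2 and 3, 75.7, 80.7 and 81.3 CPM. Thy1, the gene of the reporter protein, measured 18.8 and 21.4 CPM against 269.9, 269.3 and 300.5 CPM. Both genes separated the groups in the direction of the labels. T cell identity genes (Cd3 chains, Cd4, Cd28 and others, 9 measured) summed to 7106 to 7563 CPM in every library, with Cd4 higher and Cd2 lower in reporter-null cells. Antigen receptor constant genes were not analysed here. Reporter-null replicate 2 and Treg replicate 1 stood apart from their groups in genes of other cells. Summed epithelial markers were 1378 CPM in reporter-null replicate 2 and 308 CPM in Treg replicate 1, against 23.3 to 44.7 CPM in the others, and B and plasma cell markers were 1371 and 1864 CPM against 719 to 752 CPM. Of the 13 epithelial markers tested 0 passed the edgeR test described next (0 at an unadjusted p under 0.05, 0 with DESeq2 and 0 with limma-voom, but 1 without reporter-null replicate 2), and of the 12 B and plasma cell markers 2 did. In bulk RNA, fewer cells of a type and less RNA per cell cannot be told apart.

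Of the 10 regulators, 4 differed between the groups in edgeR's quasi-likelihood test with Benjamini-Hochberg adjustment over the 14164 genes tested, at an adjusted p under 0.05. Prdm1, Ahr and Runx3 rose in reporter-null cells and Bcl6 fell. Gata3, Tbx21, Maf, Irf4, Batf and Eomes did not pass. Over all genes tested 8.79% passed (4.07% higher and 4.72% lower in reporter-null cells), and 3199 had an unadjusted p under 0.05. The groups did not overlap for 6 of the 10 regulators, the 4 called ones with Maf and Eomes, against 40.8% of all genes tested. Of these 6, 4 were higher in reporter-null cells (20.3% of all genes) and 2 lower (20.5%). The median log2 fold change, reporter-null minus Treg throughout, was 0.37 over the regulators and 0.02 over all genes tested. All 10 passed the filter on low counts, Eomes with 4 to 18 counts a library.

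**Figure D1:**
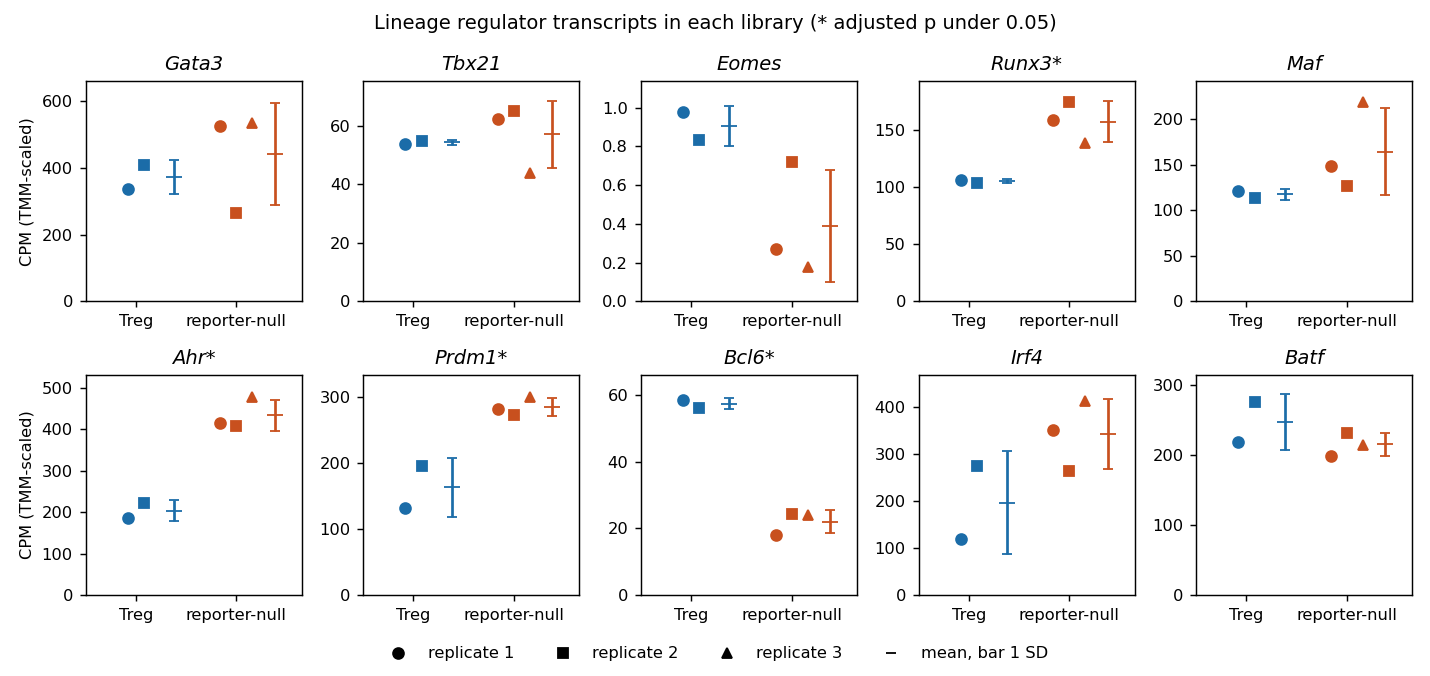
Level of each of the 10 regulators in CPM (linear axes from 0) in the 2 Treg (blue) and 3 reporter-null (orange) libraries, 1 point per library, with the group mean and a bar of 1 SD to each side and an asterisk on called genes. Bcl6 points of the reporter-null group lie at 17.9 to 24.2 CPM, all below the Treg points at 56.2 and 58.6 CPM, and Ahr points lie at 408 to 477 CPM, all above the Treg points at 186 and 221 CPM.

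**Figure D2:**
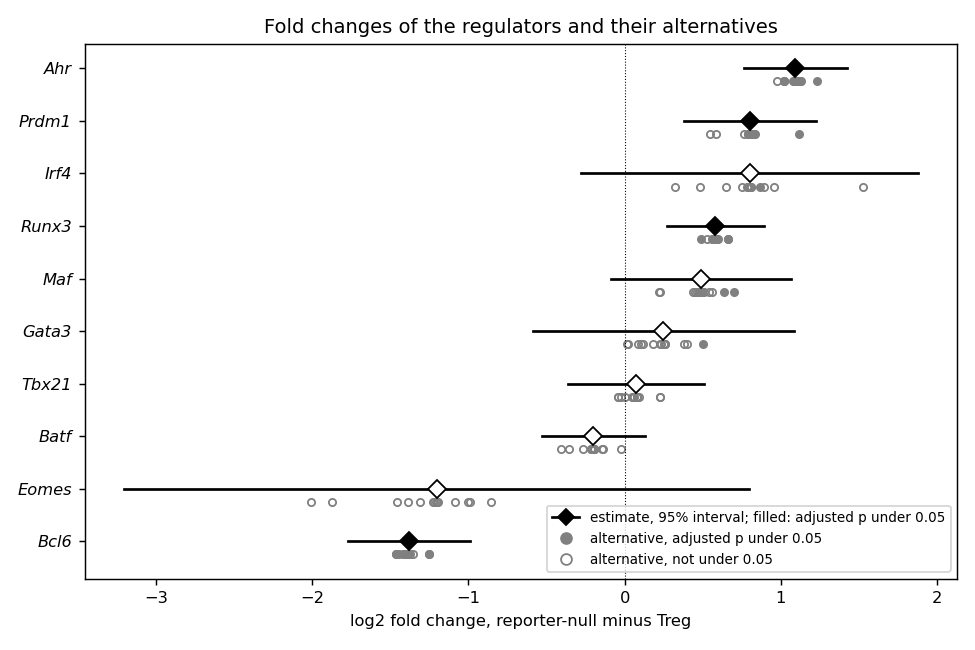
Log2 fold change (reporter-null minus Treg) of each regulator with its 95% interval from the edgeR fit (diamonds, filled where called), and below it the estimates under the alternative settings (circles, filled where called). The intervals of Ahr, Prdm1, Runx3 and Bcl6 lie clear of 0, while the Eomes interval runs from -3.20 to 0.80.

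Levels of different genes were set side by side only per kilobase of exon, in CPM per kb. In Treg cells Batf stood first (mean 258 CPM per kb, n = 2) and Gata3 second (116). Irf4 (41.2), Ahr (36.7) and Prdm1 (30.5) followed with overlapping ranges, since Irf4 alone spanned 25 to 57.4 CPM per kb. Runx3 (25.1) lay within the Prdm1 range. Tbx21 (21.9), Bcl6 (16.3) and Maf (14.2) came next in separate ranges, and Eomes was last at 0.245. In reporter-null cells Batf (225, n = 3) and Gata3 (138) again led. Ahr took the third place there at 78.2 CPM per kb, ahead of Irf4 at 71.7 and Prdm1 at 53.1, and from Gata3 to Prdm1 each range overlapped with the next. Runx3 (37.6) stood apart, Tbx21 (23.0) and Maf (19.9) overlapped, and Bcl6 had moved to ninth place with 6.24, below every Maf library. With the longer exon models of the full annotation, Bcl6 stood below Maf in Treg cells too (8.56 against 14.2), and Tbx21 above Runx3 (21.9 against 21.0).

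Blimp-1, encoded by Prdm1, and Bcl6 moved in opposite directions. Blimp-1 is the repressor that accompanies effector differentiation, and in Treg cells it is linked to IL-10. Prdm1 measured 132 and 195 CPM for Treg replicates 1 and 2 and, for reporter-null replicates 1, 2 and 3, 282, 273 and 299.9 CPM. Every reporter-null library lay above both Treg libraries, and the reporter-null values were within 1.1-fold of each other. The rise was 1.74-fold (log2 fold change 0.80, SE 0.178, edgeR adjusted p = 0.0393). It did not pass without Treg replicate 1 (adjusted p = 0.191), nor on leaving out reporter-null replicate 1 (0.135) or replicate 3 (0.0814), nor with Treg replicate 1 and reporter-null replicate 2 both left out (0.0614), over a range of 0.000273 to 0.196 in 15 alternatives. Treg replicate 1, the library with the lower Prdm1, is the one with the highest B and plasma cell marker sum, and plasma cells also express Prdm1. Their part in the result was not tested.

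Bcl6, the repressor that defines Tfh and follicular regulatory cells, measured 58.6 and 56.2 CPM in Treg cells against 17.9, 24.2 and 23.9 CPM in reporter-null cells. The groups were clear of each other, and the Treg libraries differed by 1.04-fold. Bcl6 fell 2.61-fold (log2 fold change -1.38, SE 0.164, edgeR adjusted p = 0.00416). Without Treg replicate 1 the adjusted p was 0.0536 with a log2 fold change of -1.35, and without each other library it stayed under 0.05. Within a library the log2 ratio of Prdm1 to Bcl6 reads, which needs no library scaling, was 1.17 and 1.79 in Treg cells and 3.97, 3.5 and 3.65 in reporter-null cells. The difference of 2.22 had an exact permutation p = 0.1 (two-sided), the smallest that 2 against 3 libraries allow, and 0.45 after adjustment over the 9 ratios computed.

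The start regions of both genes are shown because the pair moved in opposite directions. The windows are the 250 bases before a RefSeq transcription start (GRCm38.p6, 5′ to 3′ on the gene's strand), with matches to any of 10 short motifs in capitals. The Prdm1 window lies at chr10:44458749-44458998 on the minus strand and the Bcl6 window, at the second of its 2 listed starts, at chr16:23981284-23981533 on the minus strand.
Prdm1: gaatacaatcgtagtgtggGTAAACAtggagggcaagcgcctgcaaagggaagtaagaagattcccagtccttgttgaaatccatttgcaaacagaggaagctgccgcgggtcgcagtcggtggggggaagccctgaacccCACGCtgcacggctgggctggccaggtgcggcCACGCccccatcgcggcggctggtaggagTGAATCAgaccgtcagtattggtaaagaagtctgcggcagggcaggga
Bcl6: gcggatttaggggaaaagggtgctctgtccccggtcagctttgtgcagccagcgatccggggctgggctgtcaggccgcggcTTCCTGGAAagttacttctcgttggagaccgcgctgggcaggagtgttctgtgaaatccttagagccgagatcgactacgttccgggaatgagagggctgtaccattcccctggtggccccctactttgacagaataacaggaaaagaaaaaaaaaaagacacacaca
In the Prdm1 window the first capitals are a forkhead motif (GTAAACA, bases -231 to -225 from the start), the next a pair of reverse-strand matches to the AHR core GCGTG, and the last an AP-1 motif (TGANTCA, the site shape of the BATF and JUN family, at -48 to -42). On both strands, GTAAACA occurs in 3.17% of 32851 windows of the same length, TGANTCA in 6.75% and GCGTG in 28.2%. The capitals in the Bcl6 window are a BCL6 motif (TTCCTNGAA, -168 to -160), found in 1.31% of windows. The window at the other Bcl6 start held no match. The Blimp-1 motif (in 0.207% of windows, each of these also a match to the IRF motif) was in no window of the 8 regulators matched. These are letter matches only.

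Genes that Blimp-1 and Bcl6 are known to control moved in both directions, with more below 0 than above in each list. Log2 fold changes were positive for 2 of 10 tested genes repressed by Blimp-1, 4 of 11 induced with it and 4 of 14 Tfh genes. The shares called were 50%, 27.3% and 42.9%, against 8.79% of all genes tested. Of 10 tested genes repressed by Blimp-1, 1 rose (Tcf7) and 4 fell (Cxcr5, Ccr7 and Satb1 among them) in reporter-null cells, with a median log2 fold change of -0.72. Of 11 genes induced with Blimp-1, 1 rose (Ccr6) and 2 fell (Gzmb and Tigit), with a median of -0.51. The calls of Tcf7 and Ccr6 were lost without reporter-null replicate 1 (edgeR adjusted p = 0.0902 and 0.122). They were also lost without either Treg library, at log2 fold changes of 0.644 and 0.895 for Tcf7 and 0.619 and 0.629 for Ccr6. Those of Ccr7 and Satb1 were lost without Treg replicate 1 (log2 fold changes -1.63 and -1.37). That of Gzmb was lost without Treg replicate 2 (-1.53). Over left-out libraries 2 to 7 genes of the repressed list and 1 to 7 of the induced list passed. Tigit, an inhibitory receptor, measured 372 and 354 CPM in Treg cells and 135, 171 and 130.4 CPM in the reporter-null group (log2 fold change -1.32, SE 0.145, edgeR adjusted p = 0.00308). In the Tfh list, 5 of 14 fell (Cxcr5, Sh2d1a, Slamf6, Il6ra and Cd200) and 1 rose (median -0.32), and 4 to 7 passed over left-out libraries. Cxcr5, the receptor that guides cells into follicles, measured 153 and 110.0 CPM against 4.93, 10.8 and 6.99 CPM. It fell by 4.12 on the log2 scale (SE 0.351, edgeR adjusted p = 0.00297). Sh2d1a and Slamf6, which encode the adaptor SAP and one of its receptors, and Il6ra fell as well, with log2 fold changes of -1.90, -1.64 and -1.296 (edgeR adjusted p = 0.000626, 0.000912 and 0.00277). The call of Cd200 was lost without reporter-null replicate 1 (edgeR adjusted p = 0.0795). It was also lost without Treg replicate 2, at a log2 fold change of -0.82. Il21, the cytokine of Tfh and Th17 cells, was the list's one gene that rose, from 4.56 and 7.77 CPM to 138, 78.4 and 163 CPM (log2 fold change 4.35, edgeR adjusted p = 0.00796). Its call was lost without Treg replicate 1 (0.0647) or Treg replicate 2 (0.051). The lists share genes: Cxcr5 is in the Blimp-1-repressed and the Tfh list, and Tigit and Il21 are also in the c-MAF list.

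Ahr, the ligand-activated factor among the regulators, rose. It measured 186 and 221 CPM in Treg cells and 416, 408 and 477 CPM in cells of the reporter-null group. No reporter-null library overlapped with a Treg library, and the reporter-null group spanned 1.17-fold. The rise was 2.13-fold (log2 fold change 1.09, SE 0.138, edgeR adjusted p = 0.00508). Without Treg replicate 1 the log2 fold change was 0.97 and the adjusted p 0.0734, and without each other library it passed. Ahrr, the AHR repressor and itself a classic AHR target, rose from 9.94 and 9.85 CPM to 40.9, 33.8 and 49.3 CPM. Its log2 fold change was 2.06 (SE 0.203, edgeR adjusted p = 0.00211), larger than that of Ahr, so the log2 ratio of Ahr to Ahrr went from 4.22 and 4.49 in Treg cells to 3.34, 3.59 and 3.27 in reporter-null cells. The difference of -0.95 had an exact permutation p = 0.1 (two-sided, adjusted 0.45).

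Other AHR targets were tested beside Ahr. Of 13, 1 rose (Ahrr) and 1 fell (Entpd1, the ectonucleotidase CD39, log2 fold change -0.52, edgeR adjusted p = 0.0335), a share of 15.4%, against 8.79% of all genes tested, with a median log2 fold change of -0.04. DESeq2 called 5 of the 13, and 1 to 4 passed over left-out libraries. The call of Entpd1 was lost without either Treg library or reporter-null replicate 1 (0.165 to 0.17) and without reporter-null replicate 3 (0.0541). Tiparp, which feeds back on AHR, measured 109 and 178 CPM against 225, 204 and 274 CPM and did not pass (0.143). Il22, the epithelial repair cytokine that AHR supports, spread widely. It measured 0.489 and 5.60 CPM in Treg cells and 84.3, 36.4 and 161 CPM in the reporter-null group (edgeR adjusted p = 0.152, and 0.00107 with DESeq2). Cyp1a1 and Cyp1b1, which AHR ligands induce in many tissues, were under 1 CPM in every library. Of the AHR complex, Ahrr was the 1 of 7 genes called. Cells other than CD4 T cells in the gut express Ahr too. Summed ILC3 markers were 1219 and 1251 CPM in the Treg libraries and 2399 to 2786 CPM in the reporter-null ones, with 5 of 12 higher (Kit, Cd4, Tmem176a and Tmem176b among them) and 1 lower (Cxcr5). This list shares Cd4 with the T cell identity genes and Cxcr5 with the Tfh list, so its sum is not particular to ILC3. The share of the list called was 50%, against 8.79% of all genes tested. Ncr1 lay between 0.596 and 1.34 CPM. Gamma-delta T cell markers, of which 4 were measured, summed to 13.4 and 14.4 CPM against 632, 647 and 430.1 CPM, most of it from 5830411N06Rik (7.17 and 6.89 CPM against 551, 585 and 381 CPM, edgeR adjusted p = 0.000141). Antigen receptor constant genes were not among these 4. The part of such cells in the Ahr values was not tested.

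Among the regulators of Th1 and cytotoxic cells, Runx3 rose while Tbx21 and Eomes did not pass. Runx3, a RUNX factor of CD8 and Th1 cells that silences Cd4, measured 106 and 104 CPM in Treg cells and 159, 174 and 139 CPM in cells of the reporter-null group. All 3 reporter-null libraries lay above both Treg libraries. The rise was 1.5-fold (log2 fold change 0.58, SE 0.131, edgeR adjusted p = 0.0418). It passed in 9 of 15 alternatives, the fewest of the 4 called regulators. The adjusted p was 0.236 and 0.218 on leaving out Treg replicate 1 or 2, 0.168 on leaving out reporter-null replicate 1 and 0.0924 with Treg replicate 1 and reporter-null replicate 2 both left out. Runx1, its paralog and a partner of Foxp3, rose by a like amount, from 234 and 249 CPM to 366, 369 and 405 CPM (log2 fold change 0.65, SE 0.113, edgeR adjusted p = 0.0166). That call too was lost without either Treg library (0.165 and 0.107) or reporter-null replicate 1 (0.0779). The log2 ratio of Runx3 to Runx1 overlapped between the groups, with a difference of -0.08 (exact permutation p = 0.9). Cbfb, their shared partner, did not pass (log2 fold change 0.24).

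The Runx3 start region is shown for its RUNX motifs. The window before the first of its 2 listed starts lies at chr4:135120395-135120644 on the plus strand, printed as above.
Runx3: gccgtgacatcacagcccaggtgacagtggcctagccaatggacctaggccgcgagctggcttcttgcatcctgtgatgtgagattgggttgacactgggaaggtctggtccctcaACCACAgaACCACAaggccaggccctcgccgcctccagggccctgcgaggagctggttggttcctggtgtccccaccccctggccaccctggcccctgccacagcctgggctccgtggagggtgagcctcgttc
The capitals are a pair of reverse-strand matches to the RUNX motif TGTGGT, at -134 to -129 and -126 to -121. The motif occurs in 14% of windows, and among the regulators matched Batf has a pair as well. The window at the other Runx3 start held no match to any of the motifs.

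T-bet, the factor that opens the Ifng locus, did not pass. Tbx21 measured 53.8 and 55.0 CPM in Treg cells and 62.4, 65.0 and 44.0 CPM in the reporter-null group. The groups overlapped, and the log2 fold change of 0.07 had a 95% interval from -0.36 to 0.50. Without reporter-null replicate 2 its sign turned (-0.04). Eomes, the T-box factor of memory CD8 and NK cells, was close to absent, with 18 counts in each Treg library and 5, 15 and 4 in the reporter-null ones. At 0.178 to 0.977 CPM its log2 fold change of -1.20 had an interval from -3.20 to 0.80. Cd8a was at or below 0.542 CPM in all libraries, and Klra3, Klra4, Klra7 and Klra8, receptors of NK cells, were listed at 0.

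Genes of the Th1 programme moved in both directions, and 64.7% of those tested were called, against 8.79% of all genes tested. Of 17 tested, 6 rose and 5 fell (median log2 fold change 0.85). Those that fell were Cxcr3, Hopx and the chemokine genes Ccl3, Ccl4 and Ccl5. Over left-out libraries 6 to 12 passed. Ifng measured 24.3 and 39.7 CPM in Treg cells and 77.4, 87.7 and 88.6 CPM in cells of the reporter-null group (log2 fold change 1.40, edgeR adjusted p = 0.0116). Cxcr6, a tissue homing receptor, and Il18r1 and Il18rap, the 2 chains of the IL-18 receptor, rose by log2 fold changes of 2.39, 1.46 and 1.40 (edgeR adjusted p = 0.000485, 0.00342 and 0.00152). Cxcr3, a chemokine receptor that marks T-bet-positive Treg cells, went the other way. It measured 209 and 215 CPM against 21.7, 19.1 and 10.2 CPM (log2 fold change -3.64, SE 0.321, edgeR adjusted p = 0.00313). In the cytotoxic list 6 of 14 fell and 1 rose (median -1.38), and 3 to 9 passed over left-out libraries. Itgae, the CD103 integrin chain of tissue-resident T cells, measured 531 and 553 CPM in Treg cells and 18.4, 15.5 and 21.6 CPM in the reporter-null group, a log2 fold change of -4.87 (SE 0.166, edgeR adjusted p = 5.76e-05). Gzma, a granzyme, fell by 3.83 (edgeR adjusted p = 0.000653). The share of the cytotoxic list called was 50%, against 8.79% of all genes tested. Itgae, Gzma and Cd160 also made 3 of the 6 tested CD8 T cell markers lower, while Cd8a itself was near 0 throughout.

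Gata3 did not pass, and its spread within the reporter-null group was wide. It measured 337 and 409 CPM for Treg replicates 1 and 2 and, for reporter-null replicates 1, 2 and 3, 527, 266 and 534 CPM. Reporter-null replicate 2 lay below both Treg libraries and the other 2 reporter-null libraries above them. The log2 fold change was 0.25 (SE 0.332, 95% interval -0.59 to 1.082, edgeR adjusted p = 0.742). The highest reporter-null library was 2.01-fold above the lowest, where the median over 6146 well-expressed genes was 1.21-fold. Without reporter-null replicate 2 the log2 fold change was 0.50 and passed (adjusted p = 0.0399, range over 15 alternatives 0.0399 to 0.991).

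Maf did not pass either, with groups that did not overlap. It measured 122 and 113 CPM in Treg cells and 148, 126 and 219 CPM in cells of the reporter-null group. Reporter-null replicate 2 was again the lowest of its group, though above both Treg libraries. The log2 fold change was 0.49 (SE 0.238, edgeR adjusted p = 0.301), and it passed without reporter-null replicate 2 (0.63, adjusted p = 0.0404) and without that library and Treg replicate 1 (0.70, 0.0151). Without reporter-null replicate 3, its highest library, the log2 fold change was 0.23 (adjusted p = 0.341). Reporter-null replicate 2 was the lowest of its group for 5 of the 10 regulators, against 39.6% of all genes tested. For 4 of them Treg replicate 1 was also the lower Treg library, against 22.8% of all genes.

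The Th2 cytokines, like Gata3, were lowest in replicate 2 within the reporter-null group, but unlike Gata3 they did not overlap with the Treg libraries there. Il4 measured 6.62 and 22.3 CPM in Treg cells and 214, 63.0 and 375 CPM in the reporter-null group. Il5 measured 0.0543 and 1.99 CPM against 23.1, 6.58 and 35.1 CPM, and Il13 0.217 and 0.0462 CPM against 16.3, 3.31 and 23.1 CPM. Of these 3 genes Il13 was the one lower in Treg replicate 2. It had 4 and 1 counts in Treg replicates 1 and 2, too few to order them. Il4 (edgeR adjusted p = 0.176) and Il5 (0.232) did not pass. Il13 passed at 0.0471, a call lost without either Treg library (0.229 and 0.232), reporter-null replicate 1 (0.12) or reporter-null replicate 3 (0.0549) and with limma-voom (0.399). Of the 15 Th2 genes tested 2 rose (Il13 and Dusp6) and 3 fell (Ccr8, Ecm1 and Crlf2), with a median of 0.00. That was 33.3% called, against 8.79% of all genes tested. The count of 5 became 1 on leaving out either Treg library, 2 on leaving out reporter-null replicate 1 or 3 and 8 on leaving out replicate 2. Calls were lost there for Ccr8 (adjusted p up to 0.114), Crlf2 (up to 0.211), Dusp6 (0.0767, Treg replicate 1 left out) and Ecm1 (0.0533, Treg replicate 2 left out). Reporter-null replicate 2 was the lowest of its group in 11 of the 15. Il10 lay the other way. It measured 916 and 928 CPM in Treg cells and 469, 232 and 553 CPM in cells of the reporter-null group, and did not pass (log2 fold change -1.14, adjusted p = 0.146, and 0.00215 without reporter-null replicate 2). Summed ILC2 markers, which include Il5, Il13 and Il17rb, were 574, 214 and 649 CPM in the reporter-null libraries and 200.3 and 261 CPM in the Treg libraries, with 2 of 12 called, and 0 to 5 over left-out libraries. The share of ILC2 markers called was 16.7%, against 8.79% of all genes tested. The part of ILC2 cells, and of the epithelial signal of reporter-null replicate 2, in the Gata3 and Th2 values was not tested.

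**Figure D3:**
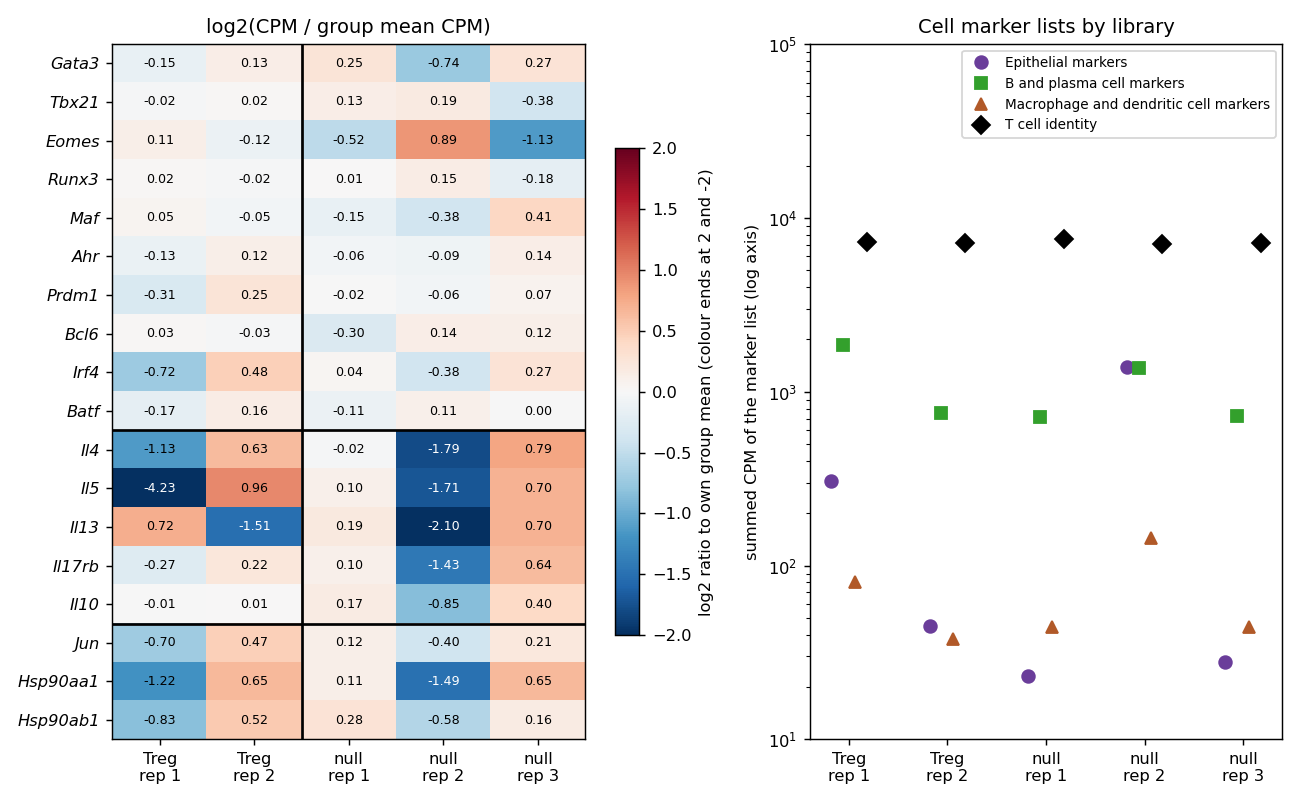
Left, log2 ratio of each library's CPM to the mean CPM of its own group, for the 10 regulators and genes named with them, with colour ends at 2 and -2. Right, summed CPM of 4 marker lists in each library on a log axis. Reporter-null replicate 2 lies at -0.74 for Gata3, -1.79 for Il4 and -1.49 for Hsp90aa1, and Treg replicate 1 at -0.72 for Irf4 and -1.22 for Hsp90aa1.

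In the c-MAF list 5 of 13 genes rose (Il17a, Il21, Il23r, Ccr6 and Nr1d1) and 2 fell (Icos and Tigit), with a median of 0.77, and 3 to 8 passed over left-out libraries. The share called was 53.8%, against 8.79% of all genes tested. Il17a is made by gamma-delta T cells and ILC3 as well, whose marker sums are given with Ahr. Il17a, the Th17 cytokine, measured 12.4 and 36.3 CPM in Treg cells and 1495, 1229 and 1527 CPM in the reporter-null group, a log2 fold change of 5.86 (SE 0.592, edgeR adjusted p = 0.00762). Nr1d1, which encodes the circadian nuclear receptor REV-ERB alpha, measured 35.1 and 35.3 CPM against 139, 113 and 104 CPM (log2 fold change 1.75, edgeR adjusted p = 0.0015). Of the relatives and cofactors of GATA3, 1 of 8 rose (Lmo4) and 1 fell (Gata1), a share of 25% against 8.79% of all genes tested. Lmo4, an adaptor of GATA complexes, rose from 10.3 and 8.18 CPM to 55.5, 45.3 and 54.7 CPM (log2 fold change 2.49, SE 0.182, edgeR adjusted p = 0.000794). Of 5 MAF relatives and 5 T-box relatives 0 passed with edgeR, DESeq2 or limma-voom, and 0 had an unadjusted p under 0.05. Without reporter-null replicate 2, 1 of the MAF relatives passed.

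Irf4 and Batf, the AP-1-IRF pair, did not pass. Irf4 measured 119 and 273 CPM for Treg replicates 1 and 2 and, for reporter-null replicates 1, 2 and 3, 351, 262 and 411 CPM. The Treg libraries alone differed by 2.3-fold, and Treg replicate 2 lay above reporter-null replicate 2. The log2 fold change of 0.80 had a standard error of 0.414 and a 95% interval from -0.28 to 1.88 (edgeR adjusted p = 0.354). It equals that of Prdm1, which passed with a smaller error. Left-out libraries moved it between 0.32 (without Treg replicate 1) and 1.53 (without Treg replicate 2), and it did not pass in any of them. Irf4 responds to antigen receptor signals, and the library lowest in each group was the same for Jun and for heat shock genes of the AHR chaperone complex. Jun measured 1730 and 3904 CPM in Treg cells and 3831, 2672 and 4100 CPM in cells of the reporter-null group. Hsp90aa1 measured 277 and 1010 CPM against 805, 265 and 1166 CPM. In each of these, Treg replicate 1 and reporter-null replicate 2 were the lowest of their groups, and these are the 2 libraries that share the number 2 in the descriptions. The part of what sets these libraries apart was not tested.

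Batf, needed for effector Treg cells and Th17 cells alike, measured 219 and 275 CPM in Treg cells and 199, 231 and 215 CPM in the reporter-null group. The groups overlapped, and the log2 fold change of -0.20 had an interval from -0.53 to 0.13. Of the 8 other IRF genes 2 passed, both lower, against 8.79% of all genes tested (4.72% lower), and 0 to 5 passed over left-out libraries. An unadjusted p under 0.05 was found for 7 of them, against 3199 of 14164 genes, and 7 had groups that did not overlap, against 40.8% (median log2 fold change -0.49). Irf7, the driver of type I interferon genes, measured 173 and 167 CPM against 78.6, 104.9 and 68.1 CPM (log2 fold change -1.02, edgeR adjusted p = 0.02). Irf9, the DNA-binding part of the interferon-activated complex ISGF3, had a log2 fold change of -0.59 (0.0195). Both calls were lost without either Treg library (0.115 to 0.156) or reporter-null replicate 1 (0.101 and 0.121). Irf8 measured 103 and 105 CPM in Treg cells and 21.1, 45.8 and 17.6 CPM in cells of the reporter-null group and did not pass (log2 fold change -1.89, edgeR adjusted p = 0.0836). It passed with DESeq2 (6.19e-05), limma-voom (0.0141) and without reporter-null replicate 2 (2.61e-06), and the groups did not overlap. It is also a gene of dendritic cells, and the marker sum of macrophages and dendritic cells was highest in reporter-null replicate 2 (144 CPM, against 37.9 to 80.6 CPM elsewhere, with Clec9a and Siglech listed at 0).

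Tissue Treg genes that BATF and IRF4 are known to support were tested beside them. The share called was 62.5%, against 8.79% of all genes tested. Of 16, 9 fell and 1 rose (median log2 fold change -1.5), and 5 to 12 passed over left-out libraries. Tnfrsf9, the costimulatory receptor 4-1BB, measured 1144 and 1165 CPM in Treg cells and 106.7, 107.2 and 105.9 CPM in the reporter-null group (log2 fold change -3.44, SE 0.108, edgeR adjusted p = 5.31e-05). Ikzf2, which encodes Helios, measured 689 and 671 CPM against 61.7, 30.9 and 59.98 CPM (log2 fold change -3.74, edgeR adjusted p = 0.00276). Many genes of this list are known Treg signature genes, so its direction is not independent of the sort.

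**Figure D4:**
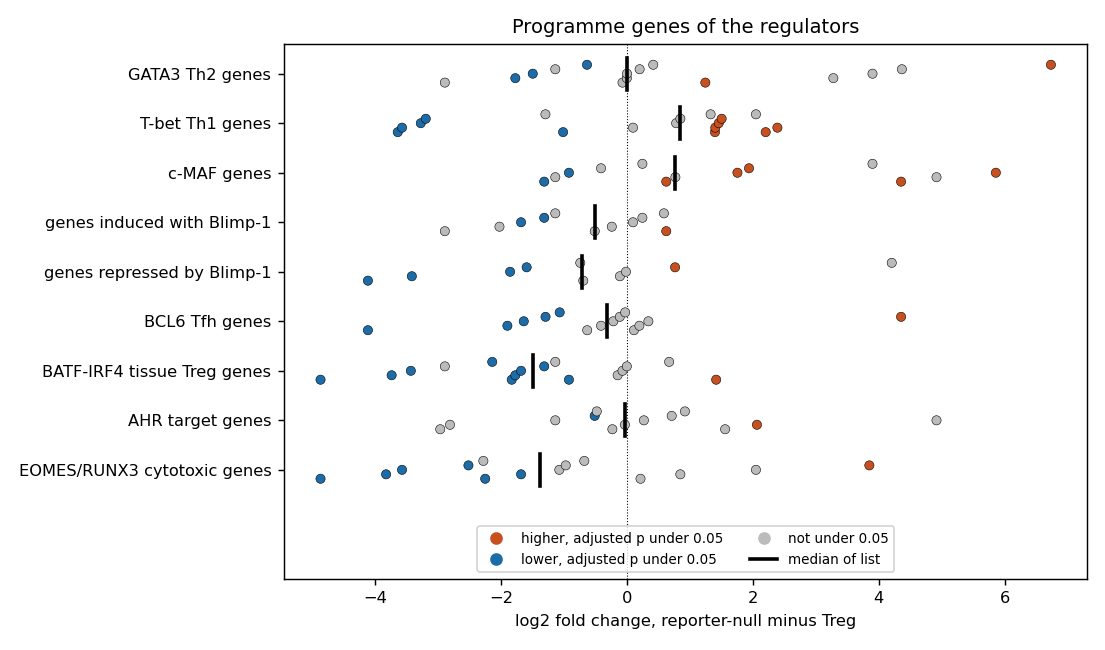
Log2 fold change (reporter-null minus Treg) of every tested gene in the 9 programme lists, 1 point per gene, in orange where called higher, blue where called lower and grey otherwise, with a black bar at the list median. Points lie on both sides of 0 in each list, and the list medians run from -1.5 for the tissue Treg genes to 0.85 for the Th1 genes.

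Counting each gene once, 45 of the 97 tested programme genes passed, 17 higher and 28 lower (46.4%, against 8.79% of all genes tested). Of the relatives, partners and antagonists of the regulators 16 of 81 passed (19.8%, 6 higher and 10 lower). The list of antagonists and partners held 8 of these. In it Tcf7 and Id2 rose, and Ikzf2, Lef1, Satb1, Bach2, Stat5a and Foxo1 fell (19 tested, median -0.24). In this list 1 gene passed on leaving out Treg replicate 1, 2 on leaving out Treg replicate 2, 3 on leaving out reporter-null replicate 1 and 10 on leaving out reporter-null replicate 2. Without reporter-null replicate 1 the calls of Tcf7, Id2 and Bach2 were lost (edgeR adjusted p = 0.0902, 0.0592 and 0.123). These 3 were also lost without either Treg library. Lef1 was lost without either Treg library too (log2 fold changes -2.39 and -2.545), and Satb1 without Treg replicate 1 (-1.37). These lists were written for T cells, and most of their genes are known to vary among T cell states. The count of regulators called was 0 on leaving out Treg replicate 1 and 6 on leaving out reporter-null replicate 2, and the programme count was then 28 and 55.

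For the 4 called regulators, the tested genes with the most similar profile over the 5 libraries were found by the root-mean-square difference of log2 CPM, each profile centred on its own mean. Beside Prdm1 these were Btg2 (0.0511), Syne1 (0.0561) and Klhl25 (0.0632). Beside Bcl6 they were Zc3h12d (0.102), Iigp1 (0.106) and Camk2d (0.115). Beside Ahr they were Prrt1 (0.0625), Carnmt1 (0.0629) and Rcbtb2 (0.0644), and beside Runx3 they were Dpp9 (0.0401), Kmt5a (0.0419) and Mtfr1l (0.0437). The 5 points of a profile share their libraries, so likeness describes these samples only.

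Of the other ratios within libraries, Irf4 to Irf8 differed by 2.91 on the log2 scale (0.21 and 1.37 in Treg cells, 4.05, 2.52 and 4.54 in reporter-null cells, exact permutation p = 0.2) and Tbx21 to Eomes by 1.44 (p = 0.2). Gata3 to Tbx21, the Th2 against the Th1 factor, was 2.65 and 2.89 in Treg cells and 3.08, 2.03 and 3.6 in reporter-null cells. The difference of 0.13 lay inside the spread (exact permutation p = 0.8).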

How the data were processed

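RNA was measured in 2 Treg and 3 reporter-null libraries. Per the labels' protocols, polyadenylated RNA from TRIzol lysates was amplified with SMART-Seq v4, made into libraries with KAPA Hyper Prep and sequenced as paired ends. The values are raw counts per gene symbol as the authors deposited them. The submitters' processing notes name DESeq. Aligner, build, annotation and strand setting: not given in the sources used here. Reads of overlapping or antisense genes therefore cannot be told apart. Rows named NA (4 of 24421, 0.0034% to 0.00492% of a library) were left out. Replicates were compared by chi-square and none agreed within sampling noise.

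Counts were fitted in R 4.3.3 with edgeR 4.0.16 (filterByExpr, minimum count 10 and total 15; TMM; robust quasi-likelihood F test; Benjamini-Hochberg, threshold 0.05). The standard error is the log2 fold change divided by the square root of F. Exon lengths came from the GENCODE vM21 basic annotation and promoters from RefSeq, which matched 8 of the 10 regulators (not Ahr and Maf). A pseudocount of 0.5 was used in ratios.

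Other settings tried were DESeq2 1.42.0, limma-voom (limma 3.58.1), RLE and upper quartile factors, 2 other filters, thinning, replicate blocks and each library left out. The named genes were the 10 regulators, Foxp3 and Thy1, up to 4 genes with the smallest p per list, others that describe a count, and the 3 nearest profiles (average log2 CPM at least 5) of called regulators. Further named genes were chosen after their values were seen. A few list genes are not reported here. The regulators and all lists were chosen with earlier results of these data known, and the lists give no independent support. In simulated counts of this comparison (14164 genes, 50 changed per size), edgeR recovered 30% at a log2 fold change of 1, 76% at 2, 78% at 3 and 88% at 4, and 12.3% of its 155 calls were false. DESeq2 recovered 46% at 1, with 32.5% false.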

Additional observations from a re-analysis of the deposited data

How the results depend on the processing

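With RLE or upper quartile factors, DESeq2, limma-voom, either other filter and thinned counts, 4 regulators passed and their log2 fold changes kept their sign. DESeq2 called 2323 genes in all, against 1245, and more genes of some lists: 10 against 5 for Th2, 7 against 3 for genes induced with Blimp-1, 11 against 7 for c-MAF, 11 against 7 for the cytotoxic list, 5 against 2 for AHR targets and 5 against 2 for the IRF family. Leaving out libraries moved the counts to 341 to 2152 genes in all, 0 to 6 regulators, 3 to 22 relatives and partners and 25 to 63 programme genes. Leaving out a Treg library leaves 1, which is assumed to vary like the other group. Leaving out both Treg replicate 1 and reporter-null replicate 2 was chosen after seeing the data, and called 2152 genes, with log2 fold changes of 0.70 for Maf (which then passed), 0.58 for Prdm1 and 0.53 for Runx3 (which then did not) and -0.043 for Tbx21.

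Over left-out libraries the log2 fold change ran from 0.088 to 0.50 for Gata3, -0.043 to 0.23 for Tbx21, 0.23 to 0.70 for Maf, 0.55 to 1.11 for Prdm1, -1.46 to -1.25 for Bcl6, 0.97 to 1.23 for Ahr, 0.49 to 0.66 for Runx3, 0.32 to 1.53 for Irf4, -0.41 to -0.02 for Batf and -2.004 to -0.85 for Eomes. Ratios turned sign without reporter-null replicate 3 for Gata3 to Tbx21 (-0.216 to 0.570 over left-out libraries), Maf to Tbx21 (-0.005 to 0.671) and Runx3 to Runx1 (-0.176 to 0.056), and without Treg replicate 1 for Batf to Batf3 (-1.087 to 2.138). The cause was not tested.

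The labels give 2 sets of replicate numbers and do not say that either pairs the samples. A replicate block by title number called 24 genes in all, 0 regulators, 0 relatives and 4 programme genes, with log2 fold changes of 0.79 for Prdm1, -1.46 for Bcl6, 1.02 for Ahr and 0.66 for Runx3, none of which passed. A block by description number called 1399 genes in all and 4 regulators, with 0.86 for Irf4, which then passed (adjusted p = 0.0079), 0.56 for Runx3, which did not, and -0.023 for Tbx21. It also called 7 of 13 epithelial markers higher in reporter-null cells. Deviations from the group means correlated at -0.51 and -0.6 between libraries with the same title number, at 0.6 between Treg replicate 1 and reporter-null replicate 2 (description number 2) and at 0.48 between Treg replicate 2 and reporter-null replicate 3 (number 3), across 14164 genes. The deviations of the 2 Treg libraries mirror each other by construction, so -0.6 and 0.6 are the same value with opposite sign. Deviations of the reporter-null group are tied as well, since they sum to 0. These correlations are therefore not separate pieces of support for either numbering.

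Eomes, at 4 to 18 counts a library, is limited by depth and gave no value under the filter of 1 CPM in 2 libraries.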
